A study of Mus musculus with 35 samples.

Results

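The 10 genes described here were chosen for their roles in the vessel wall of the brain: *Cldn5*, *Cdh5* and *Pecam1* at cell junctions, *Mfsd2a* and *Slco1c1* in transport across the barrier, *Flt1* and *Kdr* as receptors of VEGF, *Vwf* as a secreted adhesive protein, and *Icam1* and *Vcam1* as docking molecules for leukocytes. They were found by symbol among the 32544 genes of the count tables, and all 10 were present and passed the filter on low counts in each comparison. The data were hippocampal RNA-seq libraries from adult male C57BL/6JOlaHsd mice that received a microinjection of kainic acid (KA) into the amygdala, which triggers status epilepticus (intra-amygdala KA, IAKA), or of its vehicle, PBS. A cannula had been implanted beforehand, lorazepam followed the KA injection (its use in PBS mice is not stated), and tissue was taken after perfusion with PBS at 24 hours or at 2 weeks, when spontaneous seizures have set in. From each RNA extract, a library of transcripts pulled down with an antibody against N6-methyladenosine (m6A-IP, labelled as polyA RNA) and a library of total RNA (input) were prepared with a stranded total RNA kit, although not every mouse has both here. The m6A-IP libraries numbered 5 KA and 3 PBS at 24 hours, and 6 KA and 5 PBS at 2 weeks. Of 16 input libraries, the 13 with at least 100000 counts were used: 3 KA and 1 PBS at 24 hours, and 6 KA and 3 PBS at 2 weeks.

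Brain endothelial cells form the blood-brain barrier by sealing their contacts with tight and adherens junctions, by suppressing vesicle traffic and by carrying nutrients and hormones through dedicated transporters. When endothelium is activated by inflammatory signals, adhesion molecules appear at its surface, and leukocytes roll on, adhere to and cross the wall. Both leakage of the barrier and vascular adhesion molecules are known from seizure models. The level of a transcript in an m6A-IP library depends on how much of it there is and on how much of it the antibody retains, so the input libraries were read beside them. The assays also differ in their label, polyA RNA for m6A-IP and total RNA for input. In comparisons of m6A-IP with input, antibody retention and selection of polyA RNA cannot be told apart.

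The libraries were uneven, and this touched the genes below. Totals ran from 1652933 to 34564536 counts in the m6A-IP libraries and from 3057578 to 12694434 in the input libraries used, and levels are given as CPM, the counts of a gene scaled to a fixed library total. Mitochondrial and ribosomal RNA took 1.41% to 17.5% of counts and exceeded 15% in 3 libraries: both of KA mouse 8 (24 hours) and the m6A-IP library of KA mouse 6 (2 weeks). The m6A-IP columns carried a prefix of 3, 4 or 5, here called a set, whose meaning the sources do not state, and for 27 of the 35 libraries in all the assay was read from the way columns are named rather than from a word for it. Set 3 held KA mice only, so that KA and PBS can be compared within set 4 at 24 hours and within set 5 at 2 weeks. In bulk tissue, fewer endothelial cells and less RNA per endothelial cell cannot be told apart.

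None of the 10 genes passed an adjusted p of 0.05 in any of the 4 comparisons of KA with PBS (edgeR quasi-likelihood test). In the m6A-IP libraries at 24 hours, this was 0 of 10 beside 0.00607% of the 16470 genes tested, and at 2 weeks 0 of 10 beside 0% of 16157. In the input libraries, it was 0 of 10 beside 0% of 13752 genes at 2 weeks and 0 of 10 beside 0% of 17644 at 24 hours. At an unadjusted p of 0.05 the m6A-IP libraries gave 2 of the 10 genes at 24 hours (*Icam1* and *Pecam1*), against 5.31% of all genes, and 2 at 2 weeks (*Pecam1* and *Vcam1*), against 5.01%, all higher in KA. The input libraries gave 1 of 10 at 2 weeks (*Vcam1*), against 14.1%, and 6 of 10 at 24 hours, against 9.23%, again all higher in KA. DESeq2 called 1 of the 10, *Pecam1* in m6A-IP at 24 hours, beside 0.947% of the genes tested there. It called 0 of the 10 in the other 3 comparisons, whose calls over all genes are given in the last section. The input comparison at 24 hours has a single PBS library, which was assumed to vary like the other groups in the fit.

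**Figure D1:**
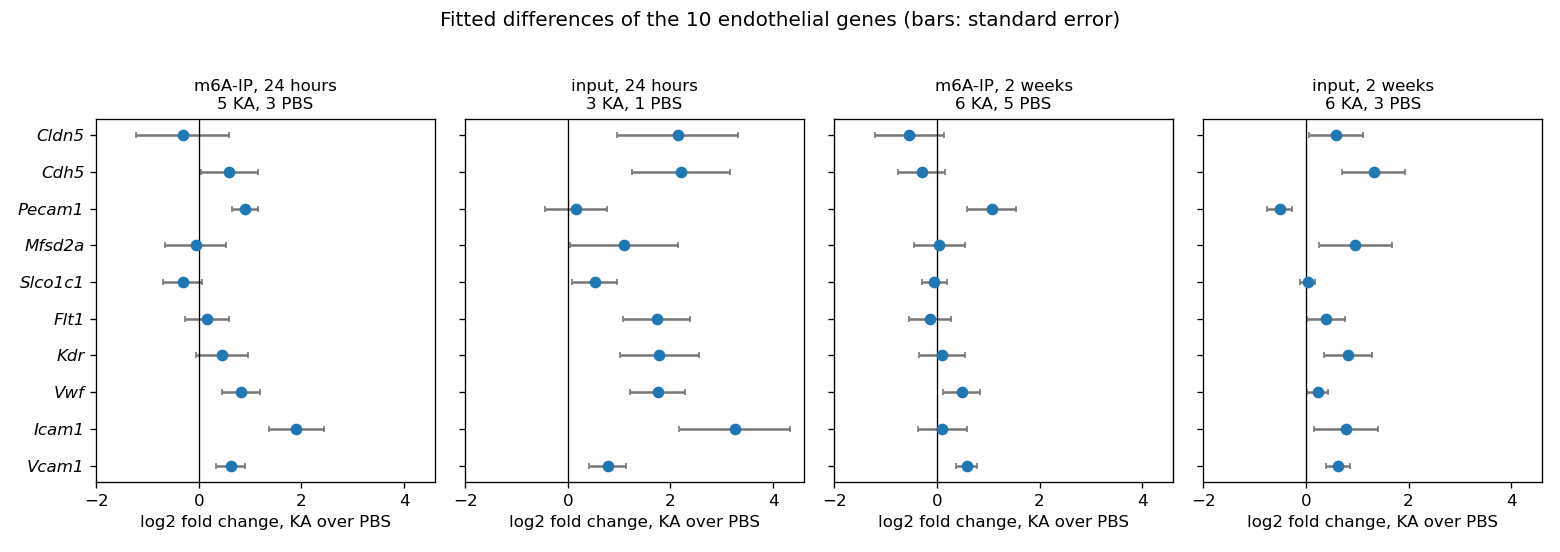
Log2 fold change of KA over PBS for each of the 10 genes (points, with the standard error as bars) in the m6A-IP and input libraries at 24 hours and 2 weeks, from edgeR. *Icam1* has the highest point in both 24-hour panels, 1.90 and 3.25, while *Vcam1* lies between 0.58 and 0.78 in all 4 panels.

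*Icam1* (chr9:21015940-21028814, mm10) encodes an immunoglobulin-family ligand for leukocyte integrins whose transcription is a classic target of NF-kB. At 24 hours its m6A-IP level was 2.97, 8.47, 9.60, 14.97 and 17.7 CPM in the 5 KA mice and 1.48, 2.22 and 4.59 CPM in the 3 PBS mice. Each KA library except that of mouse 8, the one with 16.4% mitochondrial and ribosomal RNA, stood above every PBS library, so the groups overlapped through that mouse alone. The fitted difference was 1.90 on the log2 scale (SE 0.54, adjusted p = 0.519, edgeR). Within set 4, which held 2 mice of each treatment, it was 2.12 (SE 0.30, adjusted p = 0.0256, edgeR), and *Icam1* was the 1 of the 10 genes called there, beside 2.11% of the genes tested. Without KA mouse 8 the difference was 2.13, with an adjusted p of 0.0915 in edgeR.

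The promoter of *Icam1* is shown because this gene had the largest fitted difference at 24 hours, and those of *Flt1* and *Kdr* because they are the other promoters in the table that hold a related motif. All 3 are RefSeq sequences of GRCm38.p6, 250 bases before to 50 after the start, at chr9:21015690-21015989 (plus strand), chr5:147725962-147726261 (minus strand) and chr5:75978406-75978705 (minus strand), written along the gene's strand. The windows of *Flt1* and *Kdr* lie wholly inside the loci given below, which end at 147726438 and 75979072. The start used for these genes is thus not the outer end of the locus. Capitals mark matches to the NF-kB consensus or to the shorter NF-kB form GGAAATTCC, searched on both strands; a consensus match can contain the shorter form.
Icam1: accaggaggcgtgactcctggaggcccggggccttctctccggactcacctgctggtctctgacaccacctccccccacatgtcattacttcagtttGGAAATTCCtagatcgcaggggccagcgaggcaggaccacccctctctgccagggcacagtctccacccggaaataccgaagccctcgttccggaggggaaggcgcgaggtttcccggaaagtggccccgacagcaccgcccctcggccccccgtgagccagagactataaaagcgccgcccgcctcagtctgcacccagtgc
Flt1: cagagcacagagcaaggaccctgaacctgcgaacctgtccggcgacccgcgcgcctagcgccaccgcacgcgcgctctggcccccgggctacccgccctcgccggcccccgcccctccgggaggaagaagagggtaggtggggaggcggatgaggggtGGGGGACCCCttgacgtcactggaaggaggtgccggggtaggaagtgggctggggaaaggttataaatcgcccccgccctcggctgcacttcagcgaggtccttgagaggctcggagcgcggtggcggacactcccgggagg
Kdr: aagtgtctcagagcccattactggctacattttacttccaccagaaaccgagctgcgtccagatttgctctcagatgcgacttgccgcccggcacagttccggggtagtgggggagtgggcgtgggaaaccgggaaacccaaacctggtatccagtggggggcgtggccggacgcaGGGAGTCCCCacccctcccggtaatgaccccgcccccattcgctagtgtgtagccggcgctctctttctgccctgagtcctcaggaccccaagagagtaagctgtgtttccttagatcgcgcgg
The short form begins 153 bases before the start of *Icam1* and was found in 0.317% of 32851 promoters of this length. Consensus matches begin 92 bases before the start of *Flt1* and 74 before that of *Kdr*, and 8.46% of promoters hold one. The short form was set by hand as an exact sequence, whereas the consensus allows many, so these shares are not comparable. Its match in *Icam1* is a description and no test. Promoters were found for 6 of the 10 genes, and neither motif occurred in the windows of *Cldn5*, *Mfsd2a* and *Slco1c1*. A match is a stretch of letters, and whether a factor binds there was not measured.

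The input libraries at 24 hours gave *Icam1* levels of 2.12, 7.93 and 9.46 CPM in the KA mice and 0.788 CPM, or 10 counts, in the single PBS mouse. All 3 KA values lay above the PBS value, with a fitted difference of 3.25 (SE 1.08, adjusted p = 0.396, edgeR). Without KA mouse 8 it was 3.65 (adjusted p = 0.0516, edgeR). The levels came together at 2 weeks. In m6A-IP, *Icam1* ran from 0.789 to 5.21 CPM in the 6 KA mice, with a median of 2.82, and was 1.08, 1.28, 2.58, 3.12 and 5.71 CPM in the 5 PBS mice. The groups covered the same range, and the fitted difference was 0.11 (SE 0.47, adjusted p = 0.971, edgeR). In input at 2 weeks *Icam1* rested on 1 to 16 counts a library, and the difference was 0.78 (SE 0.62, adjusted p = 0.577, edgeR). The 2-week effect minus the 24-hour effect in m6A-IP was -1.81 (SE 0.76), with an unadjusted p of 0.0267 and an adjusted p of 1.00 in edgeR, so a change of the effect with time was not called.

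**Figure D2:**
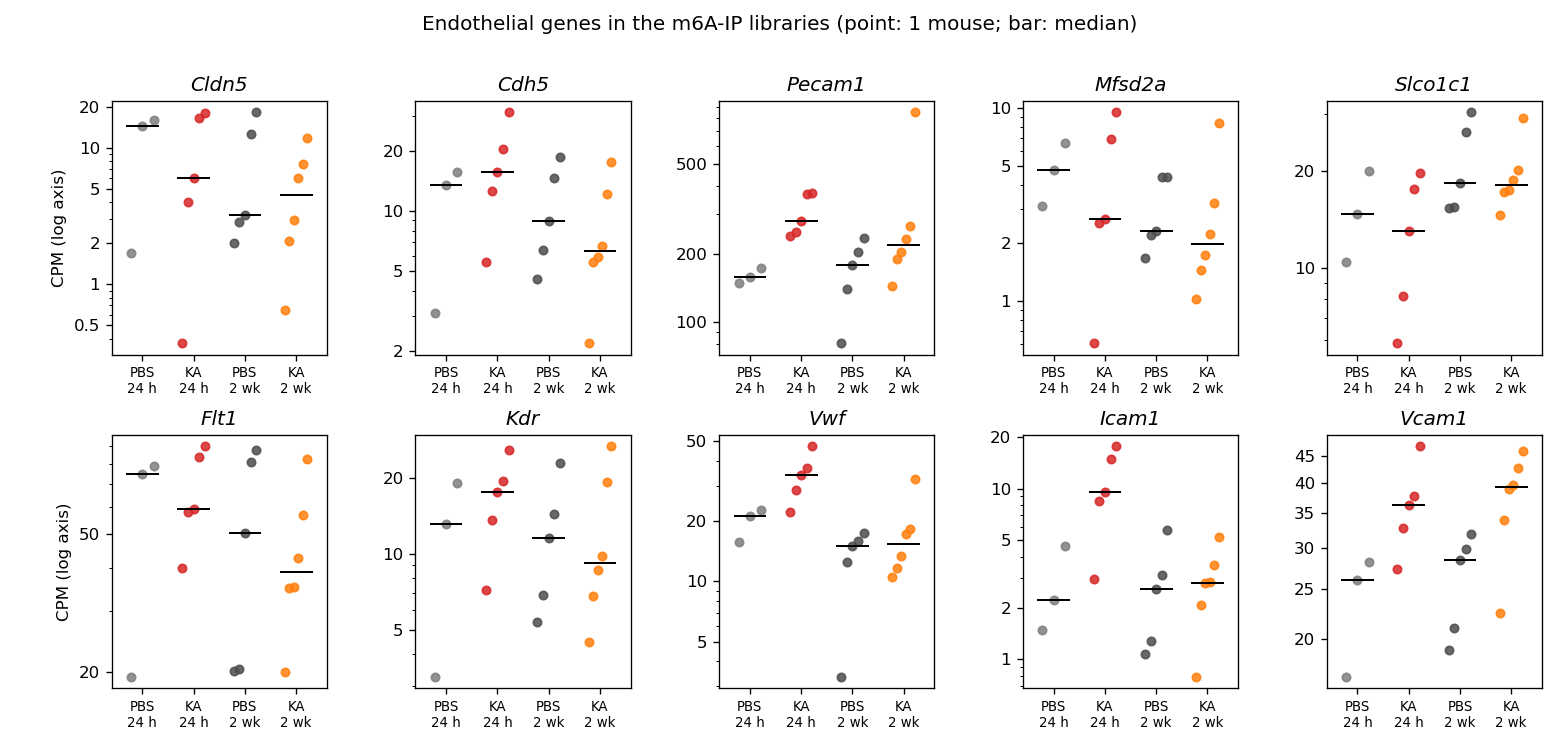
CPM (log axis) of the 10 genes in the 19 m6A-IP libraries by group; each point is 1 mouse and each bar the group median. For *Icam1* at 24 hours, 4 of 5 KA points lie above the PBS points, which reach 4.59 CPM, and for *Pecam1* all 5 do.

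*Vcam1* (chr3:116110020-116129688), the endothelial ligand of integrin VLA-4 on lymphocytes and monocytes, was higher on average in KA at both times and in both kinds of library. At 24 hours its m6A-IP level was 27.3, 32.7, 36.3, 37.8 and 47.1 CPM in KA and 16.9, 26.0 and 28.2 CPM in PBS. Only the lowest KA mouse reached into the PBS range, and the fitted difference was 0.62 (SE 0.28, adjusted p = 0.940, edgeR). At 2 weeks the m6A-IP libraries ran from 22.4 to 46.2 CPM in KA, with a median of 39.3, against 19.01, 20.9, 28.4, 29.9 and 31.9 CPM in PBS. Here 5 of the 6 KA mice stood above every PBS mouse, KA mouse 6 being the exception. The difference was 0.58 (SE 0.20, adjusted p = 0.875, edgeR), and 0.65 (SE 0.19, adjusted p = 0.998) without that library, while within set 5 it was 0.62 (SE 0.24, adjusted p = 0.956).

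In the 2-week input libraries *Vcam1* ran from 20.7 to 40.6 CPM in KA, median 31.7, and was 18.0, 21.4 and 21.8 CPM in PBS. Again 5 of 6 KA values lay above the PBS range, with KA mouse 6 the lowest. The difference was 0.63 (SE 0.23, adjusted p = 0.286, edgeR). The 24-hour input values were 21.6, 25.6 and 32.5 CPM in KA against 18.9 CPM, a difference of 0.78 (SE 0.36, adjusted p = 0.533). Between the 2 times the m6A-IP effect differed by -0.04 (SE 0.32, adjusted p = 1.00, edgeR), and between m6A-IP and input at 2 weeks by -0.05 (SE 0.30, adjusted p = 0.973). Over the alternatives tried for the 4 comparisons of KA with PBS, the difference ranged from 0.45 to 0.97 and stayed positive, with no adjusted p under 0.05 in any of them.

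**Figure D3:**
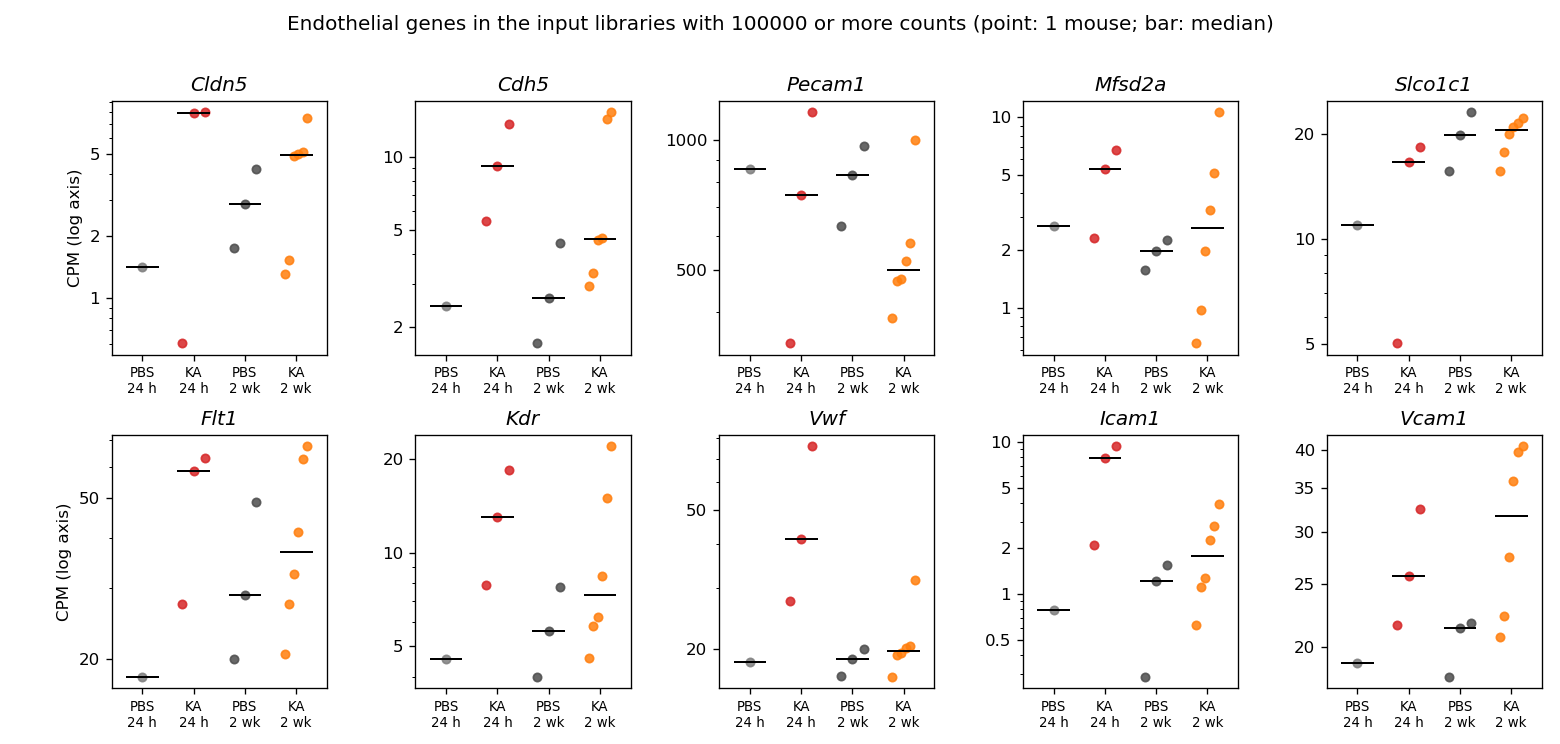
CPM (log axis) of the 10 genes in the 13 input libraries used, by group; each point is 1 mouse and each bar the group median. The 24-hour PBS group is a single mouse, and 6 of the 10 genes have all 3 KA points above it, beside 8.82% of 27212 genes.

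*Vwf* (chr6:125552948-125686679) encodes von Willebrand factor, which endothelium stores in granules and releases to tether platelets. Its 24-hour m6A-IP level was 22.2, 28.4, 33.8, 37.0 and 47.3 CPM in KA and 15.6, 21.2 and 22.6 CPM in PBS. One KA mouse fell inside the PBS range, and the highest value was that of mouse 8, with its large ribosomal and mitochondrial share. The difference was 0.81 (SE 0.37, adjusted p = 0.949, edgeR) with mouse 8 and 0.50 (SE 0.27, adjusted p = 0.694) without it. In the input libraries at 24 hours *Vwf* stood at 27.4, 41.3 and 75.9 CPM in KA against 18.4 CPM in PBS, a difference of 1.75 (SE 0.54, adjusted p = 0.373, edgeR) that became 1.13 without mouse 8. At 2 weeks the difference was 0.48 (SE 0.36) in m6A-IP and 0.23 (SE 0.20) in input, and the ranges overlapped in both.

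*Cldn5* (chr16:18776847-18778262), the claudin that seals the tight junction, varied widely within each group. Its 24-hour m6A-IP values were 0.371, 4.04, 6.05, 16.6 and 18.0 CPM in KA and 1.70, 14.5 and 16.0 CPM in PBS. Low and high mice occurred under both treatments, and the difference was -0.31 (SE 0.91, adjusted p = 0.988, edgeR). At 2 weeks *Cldn5* ran from 0.643 to 11.9 CPM in KA, median 4.51, and was 2.01, 2.89, 3.24, 12.7 and 18.3 CPM in PBS. The 2 highest PBS mice are the 2 of set 4. The difference was -0.54 (SE 0.67, adjusted p = 0.897, edgeR) over all libraries and turned to 1.05 (SE 0.52, adjusted p = 0.956) within set 5, so no direction can be given. In input the differences were 2.14 (SE 1.18, adjusted p = 0.624) at 24 hours, where KA mouse 8 at 0.605 CPM lay below the PBS mouse at 1.42 CPM, and 0.58 (SE 0.52, adjusted p = 0.632) at 2 weeks.

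*Cdh5* (chr8:104101613-104144504) encodes VE-cadherin, the adhesion protein of endothelial adherens junctions. In m6A-IP at 24 hours it stood at 5.56, 12.7, 15.7, 20.4 and 31.3 CPM in KA and 3.10, 13.5 and 15.8 CPM in PBS. The groups overlapped, with a difference of 0.60 (SE 0.56, adjusted p = 0.983, edgeR), and at 2 weeks the difference was -0.30 (SE 0.46, adjusted p = 0.912), which turned to 0.40 within set 5. In the 2-week input libraries KA values ran from 2.94 to 15.3 CPM, median 4.58, against 1.71, 2.62 and 4.44 CPM in PBS. KA mice 42 and 21, at 15.3 and 14.4 CPM, stood far above the others, and the difference was 1.32 (SE 0.62, adjusted p = 0.365, edgeR). In input at 24 hours, all 3 KA mice (5.45, 9.21 and 13.6 CPM) lay above the PBS mouse (2.44 CPM), by 2.21 (SE 0.96, adjusted p = 0.513).

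*Pecam1* (chr11:106654213-106715281), the junctional molecule CD31 that platelets and leukocytes also carry, behaved unlike the other junction genes. Whether all its counts come from the endothelial transcript was not tested. At 24 hours its m6A-IP level was 241, 251, 281, 368 and 373 CPM in KA and 148, 158 and 173 CPM in PBS. It was the 1 gene of the 10 whose KA values all lay above the PBS values, beside 1.69% of 27212 genes with 10 or more counts in all. The difference was 0.90 (SE 0.26, adjusted p = 0.519, edgeR). DESeq2 called it, with an adjusted p of 0.0339, beside 0.947% of the genes tested. At 2 weeks the m6A-IP libraries ran from 145 to 851 CPM in KA, median 218, and were 80.4, 139, 179, 204 and 236 CPM in PBS. The value of 851 CPM came from KA mouse 6, and the other 5 KA mice, up to 266 CPM, were mixed with the PBS mice. The difference was 1.07 (SE 0.48, adjusted p = 0.875, edgeR) and 0.33 (SE 0.27, adjusted p = 0.998) without that library.

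In input at 2 weeks the sign was the opposite. *Pecam1* ran from 387 to 1002 CPM in KA, median 500, and was 634, 830 and 973 CPM in PBS. Of the 6 KA mice, 5 lay below every PBS mouse and mouse 7 above, and the difference was -0.51 (SE 0.24, adjusted p = 0.365, edgeR). The m6A-IP effect minus the input effect was 1.57 (SE 0.61), with an unadjusted p of 0.0170 and an adjusted p of 0.807 in edgeR, and 0.85 (SE 0.38, adjusted p = 0.978) without the m6A-IP library of KA mouse 6. It was the 1 of 10 genes past the unadjusted 0.05 there, beside 4.06% of all genes, and the adjusted threshold took 0 of 10, beside 0%. In 24-hour input the difference was 0.16 (SE 0.60), with KA values of 338, 748 and 1163 CPM around the PBS value of 857 CPM.

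The comparison of m6A-IP with input in the PBS mice at 2 weeks called 1 of the 10 genes, *Pecam1*, beside 1.12% of 15128 genes. It was lower in m6A-IP by -2.55 on the log2 scale (SE 0.31, adjusted p = 0.00641, edgeR). Antibody retention and selection of polyA RNA cannot be told apart in this value. The 3 PBS mice with both libraries had 634 and 236 CPM (mouse 2), 973 and 204 CPM (mouse 3) and 830 and 80.4 CPM (mouse 4) in input and m6A-IP. Each mouse was lower in m6A-IP, by -1.43, -2.25 and -3.37. Among the 9 mice of both treatments with both libraries, 8 were lower in m6A-IP, and KA mouse 6 was higher. With the mouse as a replicate block the difference was -2.59 (SE 0.38) and no longer called (adjusted p = 0.0634, edgeR), and without the input library of mouse 3 the adjusted p was 0.0541. Of all genes, 56 were called higher and 114 lower in m6A-IP, and 248 higher and 95 lower with scaling by library size, which moved the median of all genes from 0.07 to 0.31. Among the related lists *Neurod6*, a transcription factor of excitatory neurons, was called higher in m6A-IP there (1.303, SE 0.24, adjusted p = 0.0380, edgeR). The other 9 genes were not called in edgeR and ranged from -0.77 (*Vwf*) to 1.63 (*Cdh5*, SE 0.53, adjusted p = 0.190). DESeq2 called *Cdh5* as well (adjusted p = 0.0485), so 2 of 10, beside 4.88% of genes.

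**Figure D4:**
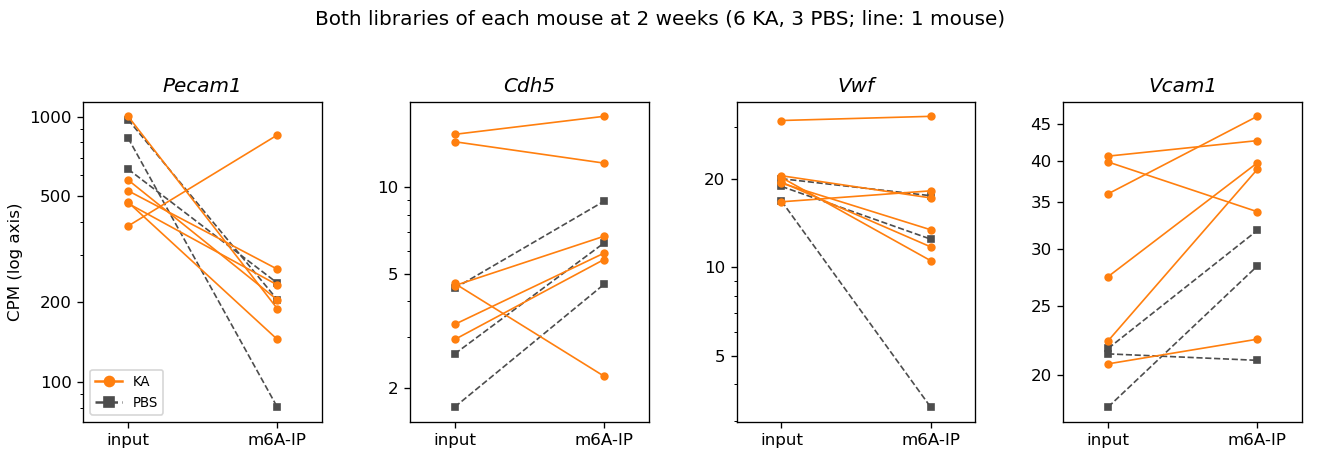
CPM (log axis) of *Pecam1*, *Cdh5*, *Vwf* and *Vcam1* in the input and m6A-IP libraries of the 9 mice with both at 2 weeks; each line is 1 mouse. *Pecam1* falls from input to m6A-IP in 8 of 9 mice, whereas *Cdh5* falls in 2 of 9.

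The barrier transporters showed no difference past the spread between mice. *Mfsd2a* (chr4:122946850-122961194), the lysophosphatidylcholine carrier that also restrains vesicle traffic, stood in 24-hour m6A-IP at 0.605, 2.53, 2.67, 6.91 and 9.50 CPM in KA and 3.10, 4.79 and 6.60 CPM in PBS. The lowest value rests on 1 count, and the difference of -0.06 (SE 0.60) turned positive without KA mouse 8 (0.13). At 2 weeks *Mfsd2a* differed by 0.05 (SE 0.49) in m6A-IP and 0.96 (SE 0.71) in input, and in both assays KA mouse 42 was the highest, at 8.39 and 10.6 CPM. *Slco1c1* (chr6:141524354-141570177), a carrier of thyroid hormone that astrocytes express toowas close to even at 2 weeks. Its 2-week m6A-IP values ran from 14.6 to 29.3 CPM in KA, median 18.1, and were 15.3, 15.5, 18.3, 26.5 and 30.4 CPM in PBS. The groups coincided, with differences of -0.05 (SE 0.24, adjusted p = 0.975, edgeR) in m6A-IP and 0.04 (SE 0.15, adjusted p = 0.934) in input. At 24 hours the differences were -0.32 (SE 0.37) and 0.52 (SE 0.44), and KA mouse 8 was lowest in both assays.

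The VEGF receptors were alike in pattern. *Flt1* (chr5:147561604-147726438) encodes VEGFR1, a high-affinity receptor that also acts as a trap, and *Kdr* (chr5:75932827-75979072) encodes VEGFR2, the main signalling receptor. In 24-hour m6A-IP, *Flt1* stood at 40.0, 58.1, 59.3, 83.8 and 89.9 CPM in KA and 19.3, 74.6 and 78.9 CPM in PBS. *Kdr* stood at 7.20, 13.6, 17.5, 19.5 and 25.7 CPM in KA and 3.25, 13.2 and 19.0002 CPM in PBS. For both genes PBS mouse 1 was the lowest, and the other PBS mice lay among the KA mice, with differences of 0.16 (SE 0.42, adjusted p = 0.985, edgeR) for *Flt1* and 0.46 (SE 0.51, adjusted p = 0.983) for *Kdr*. At 2 weeks the m6A-IP differences were -0.14 (SE 0.41) and 0.10 (SE 0.45), and that of *Flt1* turned to 0.64 within set 5. In 24-hour input all KA mice lay above PBS mouse 1, with differences of 1.73 (SE 0.66, adjusted p = 0.465) for *Flt1* and 1.79 (SE 0.77, adjusted p = 0.509) for *Kdr*.

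The 24-hour input comparison thus had 6 of 10 genes with all KA values above the single PBS value, beside 8.82% of 27212 genes. They were *Cdh5*, *Flt1*, *Kdr*, *Vwf*, *Icam1* and *Vcam1*. All KA values lay below the PBS value for 24% of the 27212 genes and for none of the 10. Fitted values were positive for all 10 genes and for 65.9% of all genes tested. The lone control is mouse 1, whose m6A-IP library was also the lowest PBS library at 24 hours for *Cldn5*, *Cdh5*, *Mfsd2a*, *Flt1*, *Kdr*, *Vwf* and *Icam1*, with a mitochondrial and ribosomal share of 8.31% (6.45% in input). The median fitted value was 1.74 for the 10 genes and 0.27 for all genes, and the all-gene median moved to -0.04 with scaling by library size. For comparison, the medians of the 10 genes and of all genes were 0.53 and 0.08 in 24-hour m6A-IP, 0.07 and -0.001 in 2-week m6A-IP, and 0.61 and 0.02 in 2-week input. No gene of the 10 kept its groups apart at 2 weeks in either assay, where every KA library lay above every PBS library for 0.261% of genes in m6A-IP and 1.64% in input, and below for 0.22% and 2.3%. The effect of time in m6A-IP called 0 of 10, beside 0.00573% of 17440 genes, and only *Icam1* had an unadjusted p under 0.05 in it, beside 2.45%.

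Levels of several of these genes ran with the share of mitochondrial and ribosomal RNA across the 19 m6A-IP libraries. Over 10 relations tested, *Cldn5* had Pearson's r = -0.869 (permutation p = 1e-05, the smallest 100000 permutations can give, adjusted p = 5e-05) and Spearman's rho = -0.798 (permutation p = 0.0001, adjusted p = 0.000333). *Cdh5* had r = -0.837 (permutation p = 1e-05, adjusted p = 5e-05) and rho = -0.851 (permutation p = 2e-05, adjusted p = 0.0002). Without the 2 libraries farthest from the median share, r was -0.777 for *Cldn5* and -0.842 for *Cdh5*. Within sets 3, 4 and 5, of 6, 6 and 7 libraries, r was -0.931, -0.399 and -0.757 for *Cldn5* and -0.929, -0.486 and -0.585 for *Cdh5*. *Kdr*, *Flt1* and *Icam1* had r of -0.736, -0.721 and -0.639 (adjusted permutation p = 0.001, 0.00142 and 0.00644), with rho of -0.718, -0.784 and -0.709 (adjusted permutation p = 0.0017, 0.000333 and 0.00182). Without the 2 farthest libraries their r was -0.738, -0.785 and -0.668, and within sets 3, 4 and 5 it was -0.916, 0.112 and -0.551 for *Kdr*, -0.861, -0.707 and -0.475 for *Flt1*, and -0.891, -0.287 and -0.291 for *Icam1*. For the other 5 genes r lay between -0.444 and 0.25, with adjusted permutation p of 0.0956 or more. Their rho lay between -0.502 (*Vwf*, permutation p = 0.0303, adjusted p = 0.0505) and 0.211, with -0.461 for *Mfsd2a* (adjusted permutation p = 0.0691), and without the 2 farthest libraries r was -0.619 for *Vwf*. The part of this share in the differences between KA and PBS was not tested beyond the values given without the libraries over 15%.

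**Figure D5:**
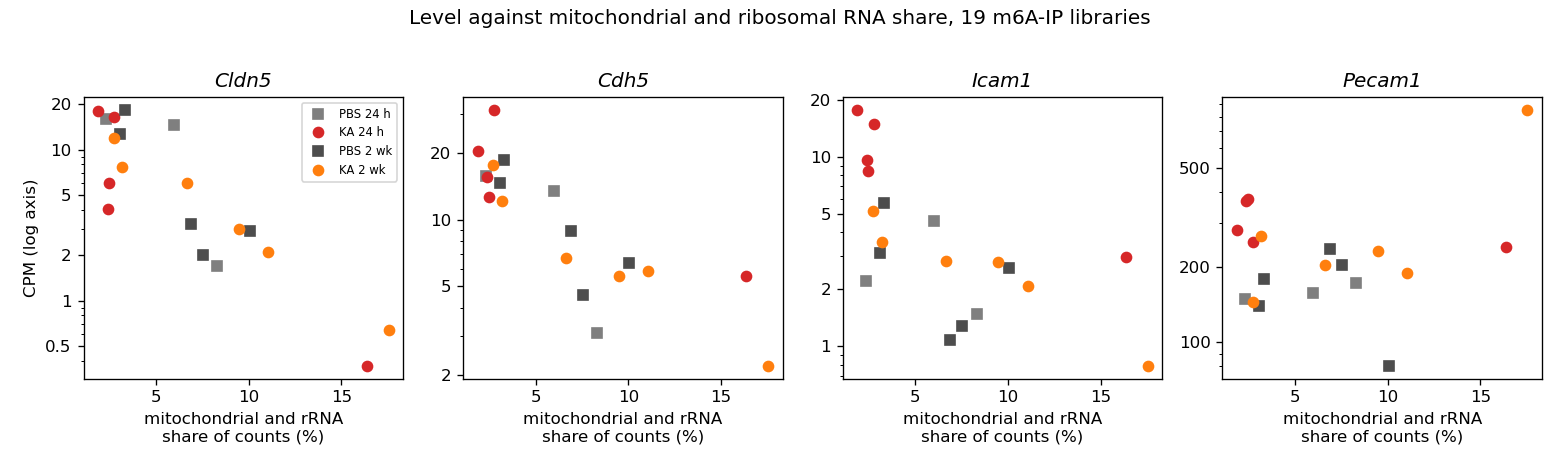
CPM (log axis) of *Cldn5*, *Cdh5*, *Icam1* and *Pecam1* against the percentage of counts from mitochondrial and ribosomal RNA in the 19 m6A-IP libraries, by group. *Cldn5* and *Cdh5* fall as the share rises (r = -0.869 and -0.837), and the highest *Pecam1* value, 851 CPM, is the library with the highest share, 17.5%.

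By likeness over the same 19 libraries, chosen after the values were seen, *Cdh5* ran closest to *Podxl* (r = 0.972), *Pdgfrb* (0.967) and *Eng* (0.964) among 14138 genes, and *Kdr* closest to *Cdh5* (0.932) and *Flt1* (0.924). *Flt1* ran closest to *Adgrf5* (0.951). *Icam1* was nearest to *Msn* (0.943), *Tubb6* (0.941) and *Csf1* (0.928), and *Vcam1* to *Tec* (0.861). *Pecam1* was nearest to *Igf2bp2* (0.943), *AW822252* (0.902) and *Npffr1* (0.863), and its r with the other 9 genes lay between -0.392 and 0.332. The points are libraries that differ in depth and in their share of mitochondrial and ribosomal RNA, so the values are a description of the libraries.

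Set against 20 endothelial identity genes of the same library, which do not include the 10, *Icam1* still stood higher in KA at 24 hours. The summed level of those genes in m6A-IP was 218 to 362 CPM in KA and 142 to 234 CPM in PBS at 24 hours, and 125 to 260 and 125 to 240 CPM at 2 weeks. The median of the log2 ratio of *Icam1* to that sum was -4.59 in KA and -6.59 in PBS at 24 hours, 2.00 apart, and -5.95 and -5.99 at 2 weeks, 0.04 apart. In 24-hour input, against the single PBS library, the *Icam1* shift was 2.81. For *Cldn5*, *Mfsd2a* and *Vcam1* the 24-hour shifts had opposite signs in the assays, at -1.16, -1.01 and 0.36 in m6A-IP and 1.80, 0.48 and -0.26 in input. So did those of *Flt1* and *Slco1c1*, at -0.30 and -0.36 in m6A-IP and 1.11 and 0.05 in input. *Pecam1* shifted by 0.65 in m6A-IP and -0.89 in input, where all KA libraries lay below the PBS library. In every input library used, *Pecam1* alone exceeded the summed level of the 20 identity genes, with log2 ratios of 0.855 to 3.20. The other genes of the 10 lay below that sum in both assays. Groups overlapped for all 10 genes in m6A-IP by this measure.

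Lists of genes of related function were read as well. None of their genes passed the adjusted threshold in any of the 4 comparisons of KA with PBS. Several of them, such as *Icam5*, *Tnf* and *Il1b*, are not particular to the vessel wall, so the values below are not those of vessel cells alone. In 24-hour m6A-IP, of 11 vessel-side adhesion genes tested, 9 had positive values with a median of 0.46, and of 15 NF-kB targets and feedback genes 14 were positive with a median of 0.77. Permeability and activation genes had 17 of 19 positive and a median of 0.79. Medians were smaller for 18 junction genes (0.15), 19 barrier transporters (0.24), 18 genes of VEGF, angiopoietin and Notch signalling (0.28) and 14 of the Wnt barrier programme (0.14), beside 0.08 for all genes, of which 58.0% had positive values. In 24-hour input the order was another, with medians of 0.52 for vessel-side adhesion, 1.44 for NF-kB genes, 1.00 for permeability genes, 0.54 for junction genes, 0.73 for transporters, 0.60 for VEGF, angiopoietin and Notch genes and 1.08 for Wnt genes, beside 0.27 for all genes. *Cd44*, a hyaluronan receptor chosen here after its values were seen, stood at 25.1, 62.3, 94.5, 110 and 116 CPM in KA and 9.08, 12.2 and 15.1 CPM in PBS. Its groups were apart, with a difference of 2.68 (SE 0.43, adjusted p = 0.103, edgeR). *Sele*, the selectin of activated endothelium and named after its values were seen too, was at 0.505 to 3.41 CPM in KA and at most 0.221 CPM in PBS, with a difference of 3.83 (SE 0.97, adjusted p = 0.401, edgeR). It rests on few counts, 1 each in KA mice 67 and 98 and 0, 3 and 5 in the PBS mice.

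The same medians in m6A-IP at 2 weeks were 0.05 for 8 vessel-side adhesion genes, 0.28 for 9 NF-kB genes, 0.25 for 15 permeability genes and -0.07 for 18 junction genes, beside -0.001 for all genes, of which 49.8% had positive values. Barrier transporters had a median of 0.04, VEGF, angiopoietin and Notch genes 0.004 and Wnt genes -0.19. In 2-week input the medians were 0.22 for vessel-side adhesion, 0.39 for NF-kB genes, 0.38 for permeability genes, 0.17 for junction genes, 0.34 for transporters, 0.34 for VEGF, angiopoietin and Notch genes and 0.21 for Wnt genes, beside 0.02 for all genes. Of genes that leukocytes use to adhere, a list that includes *Pecam1*, 8 of 9 were positive at 24 hours and 6 of 8 at 2 weeks in m6A-IP, beside the same 58.0% and 49.8% of all genes.

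Markers of other cells were read in the same libraries. Of 13 leukocyte markers, 8 could be tested in 24-hour m6A-IP, 7 with positive values, and the summed level of all 13 was 31.2 to 120 CPM in KA and 17.5 to 45.8 CPM in PBS. The highest value was that of KA mouse 8, and the other 4 KA libraries, at 31.2 to 38.4 CPM, lay within the PBS range. Of the defining markers, *Ly6g* was at 0 in 3 of 5 KA and 2 of 3 PBS libraries, while *Ptprc* had counts in every library. The summed level at 2 weeks was 24.2 to 44.2 CPM in KA and 17.9 to 27.4 CPM in PBS, with 7 of 7 tested positive. The 12 microglia markers summed to 180 to 479 CPM in KA and 247 to 317 CPM in PBS at 24 hours, and to 257 to 716 and 196 to 307 CPM at 2 weeks, where 11 of 12 were positive. Choroid plexus markers ranged most, from 29.8 to 990 CPM in KA and 47.0 to 602 CPM in PBS at 24 hours. Mural cell markers summed to 75.7 to 235 and 109 to 199 CPM, fibroblast markers to 124 to 222 and 124 to 171 CPM, astrocyte markers to 1164 to 5426 and 3182 to 4055 CPM, oligodendrocyte markers to 1429 to 2872 and 1939 to 4143 CPM, and excitatory neuron markers to 946 to 3923 and 2546 to 5581 CPM in the KA and PBS mice at 24 hours. KA mouse 8 was the lowest of the KA libraries for each of these 5 lists and for microglia, and without it the KA minimum was 126 CPM for mural cells, 3892 CPM for astrocytes and 3414 CPM for excitatory neurons. Red blood cell genes had 3 of 4 positive at 24 hours and 4 of 4 at 2 weeks. No gene of these lists passed the adjusted threshold between KA and PBS, and their part in the levels of *Icam1*, *Vcam1* and *Pecam1* was not tested.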

How the data were processed

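Hippocampal m6A-IP and input libraries were compared between KA and PBS mice at 24 hours and at 2 weeks. The deposited tables hold raw read counts per gene for 4 lanes of each library, made by the authors on the mouse build mm10 per the labels. Names of the aligner and the counter were not given in the sources used here. The lanes were summed to 35 libraries, 8 lane columns of no listed sample were not used, and 27 libraries took their assay from the column naming rather than from an explicit word. No row lacked a gene name. Input libraries under 100000 counts, of 3171, 4621 and 34486 counts, were left out.

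Differences were fitted with edgeR (version 4.0.16, R 4.3.3) by the quasi-likelihood test after filterByExpr and TMM scaling, across all genes, with Benjamini-Hochberg adjustment; the input comparison at 24 hours used all 13 input libraries for the spread. The fits were also run on simulated counts, with the same spread for every gene and no differences between sets or in library quality. That run checks the fitting code and does not measure power or error in these data. DESeq2 (version 1.42.0), scaling by library size, no filter, leaving out mitochondrial and ribosomal RNA genes, the column set, the mouse as a block, and leaving out each library were alternatives. The labels give both libraries of a mouse the same number, so numbers pair them. At 2 weeks, deviations of the pairs correlated at 0.131 to 0.371 in KA mice and at -0.019 to 0.12 in PBS mice. At 24 hours they correlated at 0.446 to 0.887, in KA mice only. Libraries of different mice were not correlated for reference, so these values do not test the pairing. It rests on the labels for KA and PBS mice alike. CPM were computed from the summed counts with Python 3.11.15, and a log2 offset of 0.5 CPM was used for correlations. Precision covers counting error at the depth given, where a count of 0 allows up to 3 counts. All 10 genes are named in the comparisons, and up to 3 genes past the threshold from each of 18 related lists (247 of 250 genes matched, 4 through older symbols); the genes and lists were chosen with earlier results of these data known. Promoter sequences came from RefSeq (GRCm38.p6).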

Additional observations from a re-analysis of the deposited data

Results flagged for a closer look

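Among 40 gene and group combinations of 4 to 10 libraries, 6 held a library far from the others by Dixon's test at the 95% level. For a single group, chance does this about 1 time in 20. The genes share libraries, so the combinations are not independent, and the share over all genes was not computed. All 6 were in KA mice at 2 weeks. PBS mice entered only through m6A-IP at 2 weeks, as their other groups were too small, so the treatments cannot be compared by this count. *Pecam1* was at 851 CPM in the m6A-IP library of mouse 6, against 145 to 266 CPM in the other 5, and at 1002 CPM in the input library of mouse 7, against 387 to 577 CPM. *Vwf* was highest in mouse 42 in both assays, at 32.6 CPM in m6A-IP, against 10.5 to 18.2 CPM, and at 31.5 CPM in input, against 16.7 to 20.5 CPM. *Mfsd2a* was at 8.39 CPM in the m6A-IP library of mouse 42, against 1.02 to 3.20 CPM. *Slco1c1* was at 29.3 CPM in the m6A-IP library of mouse 21, against 14.6 to 20.1 CPM. No cause of these values was tested.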

How the results depend on the processing

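Of the values of the 10 genes, 434 under other settings kept direction and call and 28 changed direction, and with 1 library left out 804 kept both and 57 changed direction. DESeq2 and the comparison within set 4 each called 1 of the 10 genes in m6A-IP at 24 hours, where edgeR over all libraries called 0. For m6A-IP against input in PBS mice, DESeq2 called 2, and the mouse as a replicate block called 0, as did leaving out the input library of PBS mouse 3, so that leaving out 1 library gave 0 to 1.

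Directions changed as follows, and the cause was not tested. In m6A-IP at 24 hours, *Cldn5* was 0.0522 with the set as a block, 0.0549 within set 4 and 0.0520 without libraries over 15% mitochondrial and ribosomal RNA, and *Mfsd2a* was 0.414, 0.415 and 0.131. With m6A-IP at 2 weeks, the set as a block and set 5 alone gave 1.03 and 1.05 for *Cldn5*, 0.377 and 0.398 for *Cdh5*, and 0.623 and 0.643 for *Flt1*. *Pecam1* in input at 24 hours was -0.189 with library size scaling and -0.433 without libraries over 15%. For the effect of time, *Cldn5* was 0.859 with the set as a block, *Pecam1* -0.0169 and *Mfsd2a* -0.00107 with library size scaling, and *Pecam1* -0.568, *Vwf* 0.0189 and *Vcam1* 0.0735 without libraries over 15%. For m6A-IP minus input effects, the replicate block gave 0.156 for *Cldn5* and 0.285 for *Flt1*, and *Vcam1* was 0.0307 without libraries over 15%. For m6A-IP over input in PBS mice, the replicate block gave -0.319 for *Cldn5*, -0.163 for *Mfsd2a*, 0.0280 for *Slco1c1* and -0.390 for *Flt1*, and *Slco1c1* was 0.109 with library size scaling. The block changed no other call of the 10 genes than that of *Pecam1*.

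Leaving out 1 library at a time crossed 0 for these values. In m6A-IP at 24 hours, *Cldn5* ran from -0.809 to 0.155, *Mfsd2a* from -0.512 to 0.160 and *Flt1* from -0.256 to 0.512. At 2 weeks *Cldn5* ran from -0.959 to 0.0273, *Mfsd2a* from -0.591 to 0.232, *Slco1c1* from -0.204 to 0.120, *Flt1* from -0.380 to 0.108, *Kdr* from -0.257 to 0.431 and *Icam1* from -0.146 to 0.561. In input, *Slco1c1* at 2 weeks ran from -0.0496 to 0.108 and *Pecam1* at 24 hours from -0.433 to 0.530. The effect of time ran from -0.700 to 0.366 for *Cldn5*, -0.523 to 0.351 for *Pecam1*, -0.526 to 0.540 for *Mfsd2a*, -0.653 to 0.118 for *Flt1*, -0.773 to 0.0799 for *Kdr*, -0.563 to 0.00398 for *Vwf* and -0.192 to 0.126 for *Vcam1*. The m6A-IP minus input effect ran from -0.232 to 0.0789 for *Slco1c1*, -0.0296 to 0.412 for *Vwf* and -0.136 to 0.0619 for *Vcam1*.

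Over all genes, calls in m6A-IP at 24 hours went from 1 to 156 with DESeq2, 356 within set 4, 45 without KA mouse 8 and 31 with all 19 m6A-IP libraries in the fit. Input calls went from 0 to 116 with DESeq2 at 2 weeks, and at 24 hours to 197 with DESeq2, 180 without KA mouse 8 and 75 with all 7 libraries. DESeq2 gave 15 calls in m6A-IP at 2 weeks. In m6A-IP over input, 170 calls became 738 with DESeq2, 57 with the replicate block and 20 to 417 with 1 library left out. The input comparison at 24 hours without its PBS library was not run, as no control is left. *Icam1*, *Cldn5* and *Mfsd2a* rest on few counts in the shallow libraries.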
